A study of Mus musculus with 24 samples.

Results

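The mitosis and spindle genes are 45 mouse genes whose products enter, build, check or end cell division, chosen by symbol from the annotation of an Affymetrix array. Probe sets of a single gene measured 43 of the 45, out of 22180 genes in all. No probe set is annotated to Ccnb1 in the annotation used here, and that of Ncapg also lists another gene, so neither was analysed here. Each of the 43 has 1 probe set.

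RNA was measured in naive CD4 T cells, which were magnetically enriched and then sorted by flow cytometry. KO cells came from TRIM28KO mice and WT cells from their wild-type littermates. TRIM28 is a corepressor that zinc finger proteins recruit to chromatin. KO and WT cells were each taken unstimulated (0 h) or after 4, 24 or 72 h with plate-bound anti-CD3 plus soluble anti-CD28, which gives 24 arrays in 8 groups of 3. The sources used here name no Cre driver or other means of deletion, no age of the mice and no sort gate, and the labels do not tie the arrays of a group to separate animals. Each p-value is thus set against array-to-array spread, which may be technical in part. By the sex-linked RNA given below, that spread also includes a difference of sex.

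Resting naive T cells sit outside the cell cycle, and antigen receptor and CD28 signals drive them into growth and then into fast rounds of division. Genes of DNA replication are switched on first by E2F factors when the retinoblastoma protein family lets go of them. Mitotic genes follow late in the cycle, when the MuvB complex exchanges its repressive partners for the activators B-MYB and FOXM1. MuvB binds a promoter element called CHR, which often lies next to CCAAT boxes bound by NF-Y. Cyclin A, cyclin B and CDK1 then drive entry into mitosis, the checkpoint holds chromosomes until the spindle has caught them, and the anaphase-promoting complex ends the process by degrading cyclins and securin.

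Of the 43 genes, 35 have a promoter in the RefSeq table used here (38 windows of 300 bases, from 250 before to 50 after a transcription start, build GRCm38.p6). The 6 printed below are shown because the results turn on them: Cdc25b had the largest genotype difference, Cdk1 the lowest KO value relative to WT at 24 h, Ccnb2, Cdc20 and Ube2c made much of their rise after 24 h, and Plk1 stands for the mitotic kinases. Their windows are chr2:131186698-131186997 (plus strand, Cdc25b), chr10:69352863-69353162 (minus, Cdk1), chr9:70421505-70421804 (minus, Ccnb2), chr4:118437294-118437593 (minus, Cdc20), chr7:122159185-122159484 (plus, Plk1) and chr2:164769679-164769978 (plus, Ube2c). Each is written 5′ to 3′ on the gene's strand, with the letters TTTGAA or TTCGAA (the CHR type) and CCAAT in capitals, on either strand, so that TTCAAA and ATTGG are the same motifs read from the opposite strand.
Cdc25b: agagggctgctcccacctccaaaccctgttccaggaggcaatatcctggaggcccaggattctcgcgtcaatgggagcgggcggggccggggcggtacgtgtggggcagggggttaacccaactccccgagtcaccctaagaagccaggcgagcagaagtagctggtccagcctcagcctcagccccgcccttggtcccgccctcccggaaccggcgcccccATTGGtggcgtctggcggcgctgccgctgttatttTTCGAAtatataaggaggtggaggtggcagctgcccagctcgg
Cdk1: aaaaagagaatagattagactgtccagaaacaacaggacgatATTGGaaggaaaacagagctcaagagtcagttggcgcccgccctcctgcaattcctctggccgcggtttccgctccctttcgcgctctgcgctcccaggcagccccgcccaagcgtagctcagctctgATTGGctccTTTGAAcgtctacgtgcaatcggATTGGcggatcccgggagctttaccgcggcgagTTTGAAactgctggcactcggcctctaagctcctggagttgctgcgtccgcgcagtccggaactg
Ccnb2: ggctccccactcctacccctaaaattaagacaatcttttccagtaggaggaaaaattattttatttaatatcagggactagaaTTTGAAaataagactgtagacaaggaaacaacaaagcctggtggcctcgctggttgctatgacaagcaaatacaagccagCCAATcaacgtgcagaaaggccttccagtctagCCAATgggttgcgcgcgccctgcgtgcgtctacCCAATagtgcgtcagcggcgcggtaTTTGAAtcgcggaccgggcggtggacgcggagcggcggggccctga
Cdc20: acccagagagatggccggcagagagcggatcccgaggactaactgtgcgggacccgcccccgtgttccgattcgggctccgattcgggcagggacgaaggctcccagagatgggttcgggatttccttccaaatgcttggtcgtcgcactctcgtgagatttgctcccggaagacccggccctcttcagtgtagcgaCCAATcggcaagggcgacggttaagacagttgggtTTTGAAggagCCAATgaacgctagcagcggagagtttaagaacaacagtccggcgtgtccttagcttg
Plk1: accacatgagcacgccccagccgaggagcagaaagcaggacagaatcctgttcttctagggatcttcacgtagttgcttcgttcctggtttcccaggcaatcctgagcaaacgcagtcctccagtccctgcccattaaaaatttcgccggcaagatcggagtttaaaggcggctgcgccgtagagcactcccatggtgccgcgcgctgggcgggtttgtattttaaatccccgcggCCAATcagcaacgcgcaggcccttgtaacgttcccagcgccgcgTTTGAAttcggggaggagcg
Ube2c: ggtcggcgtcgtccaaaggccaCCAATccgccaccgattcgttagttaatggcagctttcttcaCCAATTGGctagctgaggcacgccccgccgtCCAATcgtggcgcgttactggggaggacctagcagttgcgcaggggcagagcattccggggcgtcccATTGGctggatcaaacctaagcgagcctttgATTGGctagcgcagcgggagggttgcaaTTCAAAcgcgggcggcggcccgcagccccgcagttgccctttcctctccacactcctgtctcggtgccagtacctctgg

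CHR-type letters were present in 78.9% of the 38 windows, in 55.9% of 68 windows of a list of further mitosis genes, in 15.8% of 38 windows of DNA replication genes and in 19.2% of all 32851 promoter windows. CCAAT was present in 76.3%, 61.8%, 57.9% and 37.4% of the same sets, and both motifs together in 71.1%, 36.8%, 13.2% and 7.52%. E2F-type letters (any of TTCCCGC and TTGGCGC as well as TTCGCGC and also TTGCCGC, on either strand) were in 15.8% of the mitosis and spindle windows, against 63.2% of the replication windows and 9.57% of all windows. Among the printed promoters, Cdk1 holds TTTGAA at -71 and -15 and 3 CCAAT boxes at -208, -80 and -48, where the start is base 1, there is no base 0 and a position is that of the first base on the gene's strand. In Ccnb2 the 3 CCAAT boxes lie at -87, -54 and -21 and a TTTGAA at 5, Cdc20 has a TTTGAA at -18 between CCAAT boxes at -53 and -8, and Plk1 has 1 CCAAT at -14 and TTTGAA at 31. In Ube2c 6 CCAAT matches include 2 that overlap, at -186 and -183, and its TTTGAA match is on the opposite strand at -29. Cdc25b has 1 of each, CCAAT at -28 and the TTCGAA form at 8. The windows of Birc5, Mad2l1, Nuf2 and Pttg1 hold none of these letters. A match is a description of the letters in the window, not of binding.

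**Figure D1:**
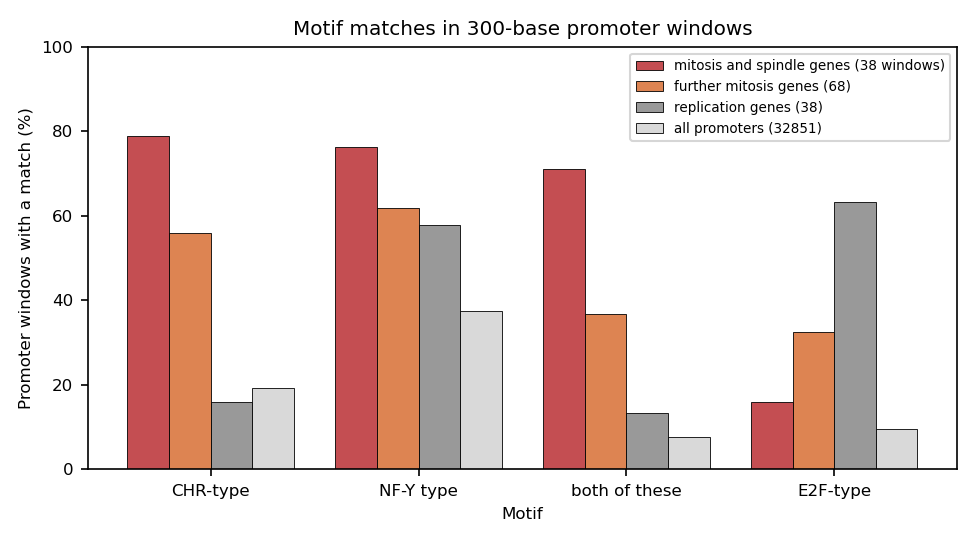
Share of 300-base promoter windows (percent, from 0) with CHR-type letters, NF-Y type letters (the CCAAT box), both, or E2F-type letters, for 38 windows of mitosis and spindle genes, 68 of further mitosis genes, 38 of replication genes and all 32851 windows. Mitosis and spindle genes have the highest share with both CHR-type and NF-Y type letters (71.1%), and replication genes the highest share with E2F-type letters (63.2%).

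The arrays resembled each other closely within groups, with a median correlation of 0.99 (lowest 0.981), and array medians of 3.59 to 3.765 log2 units. Trim28 read 4.93 to 5.80 on the 12 KO arrays and 7.71 to 9.26 on the 12 WT arrays, with log2 changes of -2.62, -3.10, -3.58 and -3.09 at 0, 4, 24 and 72 h, although the place of its probe set relative to the deletion is not given. The cells carried T cell RNA throughout: Cd3e averaged 10.72 to 12.08 and Cd4 10.39 to 11.13 over the groups. Of 8 T cell markers, 3 were called higher in KO at 24 h and 4 at 72 h (3.9% and 2.56% of all genes), with 0 lower at these times. Cd3e was among them, at 0.20 and 0.35. At 0 h 1 of the 8 was called lower and 0 higher, and at 4 h 0 were called. Arrays numbered 3 had Xist at 4.79 at most and the Y-linked Eif2s3y at 8.0 at least, in both genotypes. Arrays 1 and 2 had Xist at 9.61 at least and Eif2s3y at 2.75 at most. Arrays numbered 3 thus read as male and arrays 1 and 2 as female, so that they came from different animals. Whether arrays 1 and 2 of a group came from separate animals is not shown. The mean of 11 B cell markers was higher in KO than in WT on average at each time, for example 5.63, 4.83 and 5.49 in KO against 4.52, 4.12 and 5.14 in WT at 0 h, and 4.74, 4.16 and 4.39 in KO against 3.92, 3.70 and 4.0 in WT at 24 h. Of these 11 markers, 3 were called higher in KO at 0 h, 1 at 24 h and 0 at 4 and 72 h, and 0 were called lower. The mean of 10 myeloid markers was 3.54 to 4.24 in KO and 3.16 to 3.35 in WT at 0 h, with 4 called higher in KO, and 3.83, 3.26 and 3.83 in KO against 2.88, 3.15 and 3.32 in WT at 4 h, with 3 called higher. The mean of 5 natural killer cell markers was 4.19 to 4.32 in KO and 5.10 to 5.29 in WT at 72 h. That difference in means rests on few of the 5. Their median change was -0.04 and the lowest -3.15, with 2 called lower in KO, 0 called higher and 2 above 0. The part of these differences in the results below was not tested. Each KO and WT count was also made with KO array 2, the lowest KO array in B cell markers at every time, as the sole KO array. That fit cannot decide their part, because it leaves a single KO array. KO array 2 also read above every WT array in B cell markers at 24 h (4.16 against 4.0 at most) and at 72 h (4.16 against 3.92 at most).

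Stimulation asks when the mitotic programme appears. As a group, the genes were low at 0 h, lower at 4 h, far higher at 24 h and highest at 72 h, in both genotypes. The mean log2 level over the 43 genes was 4.65, 4.65 and 4.66 on the KO arrays and 4.73, 4.64 and 4.67 on the WT arrays at 0 h, then 4.44, 4.47 and 4.42 in KO and 4.46, 4.46 and 4.44 in WT at 4 h. Then 24 h brought 6.83, 6.90 and 7.04 in KO against 7.12, 6.99 and 7.35 in WT, followed at 72 h by 8.48, 8.43 and 8.43 in KO against 8.25, 8.33 and 8.21 in WT. Every array at 24 h thus lay above every array at 0 and 4 h, and every array at 72 h above those of 24 h. In bulk RNA, more cells in mitosis and more mitotic RNA per cell cannot be told apart.

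**Figure D2:**
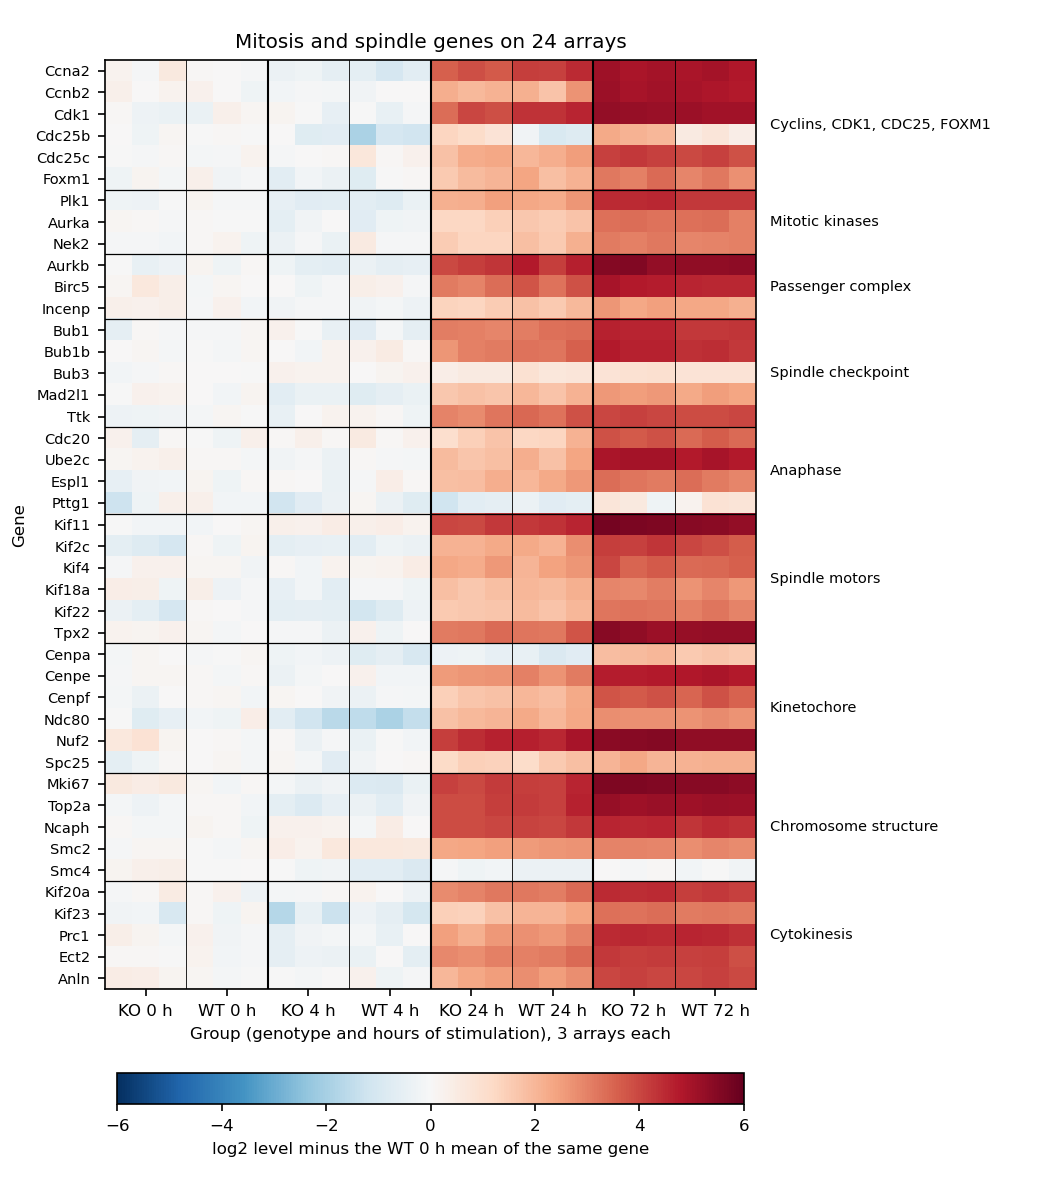
Log2 level of each of the 43 mitosis and spindle genes (rows, by role) on each of the 24 arrays (columns, 3 for each genotype and time), minus that gene's WT mean at 0 h; red is higher and blue lower. Nearly all rows turn red at 24 h and deepen at 72 h, while Smc4 stays pale throughout and Cdc25b is redder in KO than in WT at 24 and 72 h.

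By 72 h, 41 of the 43 genes had risen over 0 h in KO and 41 in WT, with 1 lower in KO (Smc4) and 0 lower in WT, where a gene counts as changed at an adjusted p under 0.05 (limma, Benjamini-Hochberg over all genes). Over all genes, 21.1% rose and 18.6% fell in KO, and 22.2% rose and 18.3% fell in WT. The median change was 4.14 in KO and 3.95 in WT on the log2 scale, beside medians of 0.01 and -0.01 over all genes. Securin, encoded by Pttg1, did not pass in either genotype, with changes of 0.75 in KO (SE 0.30, adjusted p = 0.0543) and 0.62 in WT (SE 0.30, adjusted p = 0.115). All 43 but Smc4 had their highest mean at 72 h in each genotype.

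In the first hours more of the genes fell than rose. From 0 to 4 h, 17 genes fell and 4 rose in KO (16% and 15.1% of all genes), and 15 fell and 2 rose in WT (17.8% and 16.8% of all genes), so that the shares that fell were above those of the whole array. Ndc80, a microtubule-binding subunit of the outer kinetochore, changed by -0.73 in KO (SE 0.19) and by -1.62 in WT (SE 0.19). Its 3 arrays at 4 h read 5.88, 5.34 and 4.88 in KO and 4.99, 4.60 and 5.08 in WT, against 6.48, 5.78 and 6.04 in KO and 6.35, 6.27 and 6.91 in WT at 0 h. Mki67, the proliferation antigen that coats mitotic chromosomes, fell by 0.77 in KO and by 0.69 in WT. The motor gene Kif11 and the condensin gene Smc2 rose in both genotypes, Kif11 by 0.46 in KO and 0.31 in WT and Smc2 by 0.35 and 0.63. The count of 4 that rose in KO was 2 without the arrays numbered 3, and the 2 in WT were 1 without WT array 1 at 0 h.

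From 4 to 24 h, 40 of 43 genes rose in KO and 41 in WT and 0 fell in either (over all genes 15.3% rose and 13% fell in KO, and 21.2% rose and 11.5% fell in WT), with median changes of 2.34 and 2.72. From 24 to 72 h, 42 rose in KO and 40 in WT and 0 fell (over all genes 9.63% rose and 8.03% fell in KO, and 11.6% rose and 15.8% fell in WT), with medians of 1.48 and 1.01. Set against 0 h, 40 genes were higher and 2 lower at 24 h in KO (17.6% and 16.5% of all genes), and 39 higher and 3 lower in WT (23.2% and 16.5%). The lower ones were Cenpa and Smc4 in both and Cdc25b in WT. In KO the call of Cenpa was lost without KO array 3 at 24 h (adjusted p = 0.0509), which left 1. The first step was the larger one for 33 genes in KO and 37 in WT. Of the whole log2 rise at 72 h, the median gene among the 41 that had risen by then had 59.4% at 24 h in KO and 73% in WT. After all arrays had been quantile normalized once more, the share of rises among all called genes in the WT step to 24 h was 47%, against 64.9% as deposited, while 40 of the 43 genes still rose.

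The genes of DNA replication behaved otherwise after 24 h. Of 40 replication genes, all rose from 4 to 24 h in both genotypes (medians 2.37 in KO and 2.53 in WT), but from 24 to 72 h 2 rose and 14 fell in KO and 0 rose and 34 fell in WT (medians -0.22 and -0.59). Their highest mean was at 24 h in 28 of 40 in KO and 39 of 40 in WT. Of 71 further mitosis genes, 56 rose and 0 fell from 24 to 72 h in KO (median 0.91) and 45 rose and 6 fell in WT (median 0.50). Of 13 genes for core subunits of the anaphase-promoting complex and its coactivator CDH1 (Fzr1), 4 rose and 1 fell in KO over that step (median 0.16), and 4 rose and 3 fell in WT (median 0.14).

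**Figure D3:**
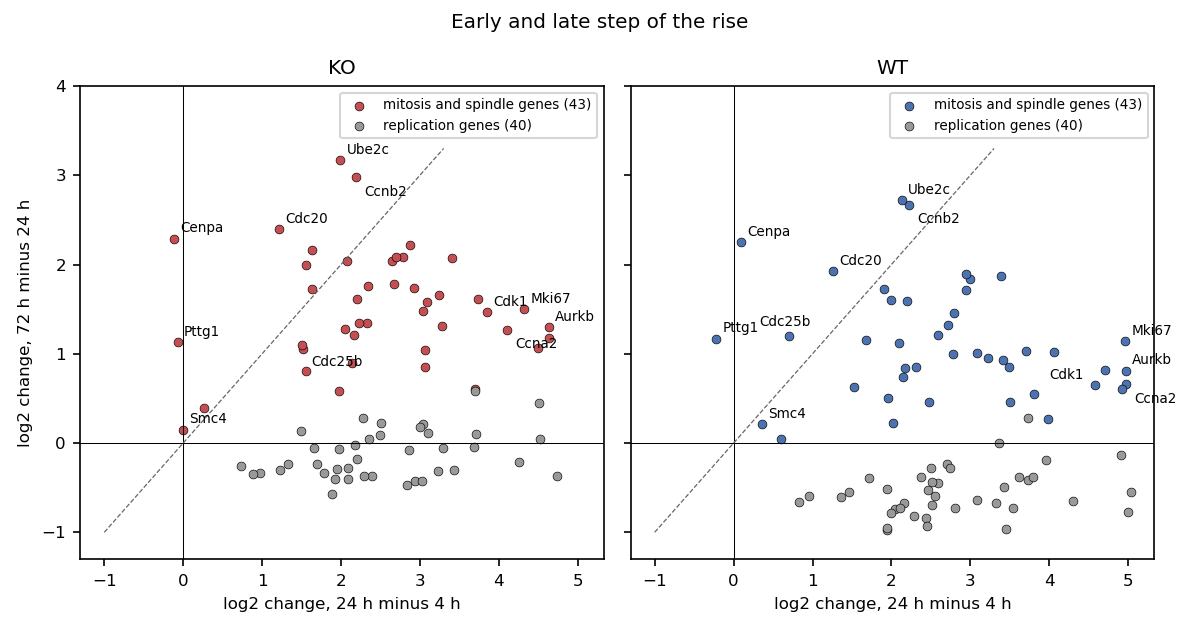
Change from 4 to 24 h (x axis, log2) against change from 24 to 72 h (y axis, log2) for each of the 43 mitosis and spindle genes (coloured) and 40 replication genes (grey), KO left and WT right; the dashed line marks equal steps. No coloured point lies below 0 on the y axis, most grey ones do, and Ube2c, Ccnb2, Cdc20, Cenpa and Pttg1 lie above the dashed line in both genotypes.

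Among cyclins, CDK1 and its activators, the order of appearance differed. Ccna2, the cyclin of S phase and early mitosis, had 73.1% of its log2 rise at 24 h in KO and 86.6% in WT, and Cdk1, the mitotic kinase, 72.8% and 87.1%. Ccnb2, a mitotic B-type cyclin, had only 38.7% in KO and 44.9% in WT. Its arrays read 6.64, 6.43 and 6.57 in KO against 6.59, 6.20 and 7.17 in WT at 24 h, and 9.62, 9.43 and 9.54 in KO against 9.41, 9.35 and 9.23 in WT at 72 h. The phosphatase gene Cdc25c and the transcription factor gene Foxm1 rose in both steps in both genotypes, and at 72 h Cdc25c stood at 7.02 ± 0.08 in KO and 6.83 ± 0.14 in WT, with 6.90 ± 0.20 in KO and 6.66 ± 0.20 in WT for Foxm1 (SD, n = 3 each).

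The 3 kinase genes Plk1, Aurka and Nek2 (a polo kinase, the spindle pole Aurora kinase and a centrosome kinase) had a median of 46.3% of their rise at 24 h in KO and 56.6% in WT. The chromosomal passenger complex, which corrects attachments of chromosomes to the spindle, had 62.7% in KO and 79.4% in WT over its kinase gene Aurkb, Birc5 (survivin) and Incenp, and the 5 checkpoint genes Bub1, Bub1b, Bub3, Mad2l1 and Ttk 63% and 80.8%. Aurkb rose by 5.70 in KO and 5.34 in WT by 72 h (SE 0.14 each), among the largest changes of the 43. Bub3, already at 9.29 ± 0.12 in KO and 9.33 ± 0.01 in WT at 0 h (SD, n = 3), rose by 0.93 and 0.80.

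Among the genes that end mitosis, timing was mixed. Ube2c, the E2 enzyme of the anaphase-promoting complex, read 6.15, 5.90 and 6.04 in KO and 6.42, 5.98 and 6.61 in WT at 24 h, and 9.12, 9.23 and 9.25 in KO and 9.0, 9.17 and 8.99 in WT at 72 h. Its step after 24 h, 3.17 in KO and 2.72 in WT (SE 0.12 each), was the largest late step of the 43 genes in each genotype. Cdc20, the activator that the checkpoint restrains, rose by 2.40 in KO and 1.93 in WT after 24 h (SE 0.20 each). At 24 h Ube2c had 33.2% of its rise in KO and 43.5% in WT, and Cdc20 37.5% and 44.5%. Espl1, which encodes separase, had 63.6% in KO and 73.2% in WT. Pttg1 has no such share because its change from 0 to 72 h did not pass, although it rose after 24 h by 1.13 in KO and 1.17 in WT.

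All 6 spindle motor and assembly genes (Kif11, Kif2c, Kif4, Kif18a, Kif22 and Tpx2) and all 5 cytokinesis genes (Kif20a, Kif23, Prc1, Ect2 and Anln) rose in both steps in both genotypes. Kif11, the bipolar motor that pushes spindle poles apart, had the largest change of the 43 in KO at 72 h, 5.79 (SE 0.10), and 5.39 in WT. Its arrays read 4.13, 4.01 and 3.98 in KO and 4.01, 4.17 and 4.30 in WT at 0 h, and 9.91, 9.79 and 9.78 in KO and 9.61, 9.59 and 9.44 in WT at 72 h. No array of 0 h came near any of 72 h.

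Kinetochore genes differed among themselves in timing. Cenpa, the histone H3 variant of centromeres, was lower at 24 h than at 0 h in both genotypes (-0.38 in KO and -0.65 in WT, SE 0.11 each) and then rose by 2.29 in KO and 2.25 in WT. Nuf2, the partner of Ndc80, rose by 4.49 in KO and 4.92 in WT from 4 to 24 h already. The chromosome genes had the highest median share of their rise at 24 h of the 9 roles, 79% in KO and 88.2% in WT, among Mki67, Top2a (the topoisomerase that untangles sister chromatids) and the condensin genes Smc2 and Ncaph. Smc4, the partner of SMC2 in condensin, was highest at 0 h, with 10.53 ± 0.10 in KO and 10.26 ± 0.03 in WT, against 10.26 ± 0.07 in KO and 10.11 ± 0.10 in WT at 72 h (SD, n = 3).

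The comparison of KO with WT asks whether loss of TRIM28 alters these genes before and during stimulation. Over the 43 genes as a group the differences were small, and their sign was not the same at each time: the median KO over WT change was -0.01 at 0 h, -0.06 at 4 h, -0.26 at 24 h and 0.16 at 72 h, beside 0.00, 0.00, -0.05 and 0.01 over all genes. At 24 h 39 of 43 genes lay below 0 and at 72 h 41 of 43 above 0. Cdc25b departed from the rest by size: it had the largest change from 4 h on and alone was called higher in KO at each of those times. Smc4 and Cenpa also had higher means in KO at 4, 24 and 72 h.

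**Figure D4:**
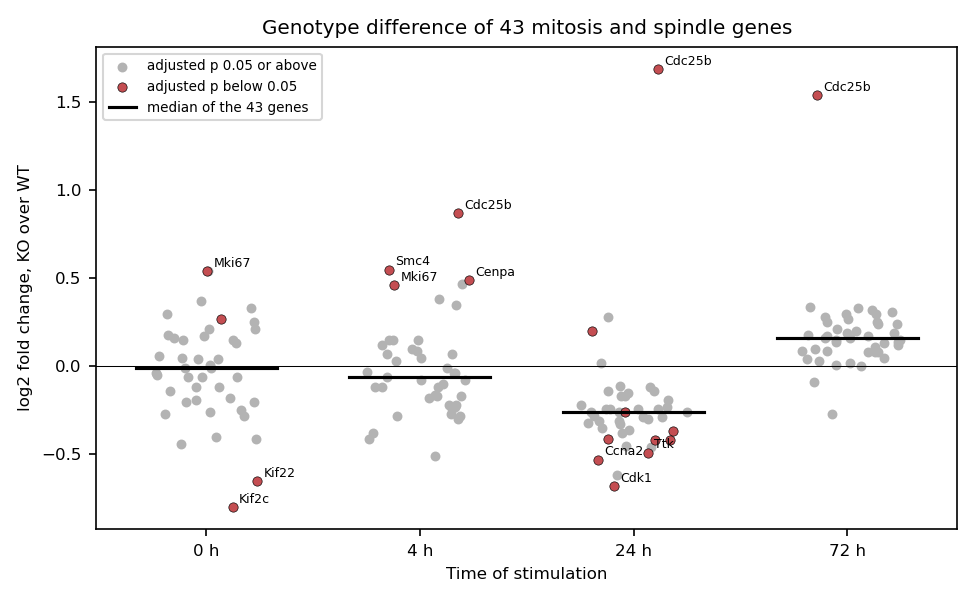
Log2 fold change of KO over WT for each of the 43 genes at 0, 4, 24 and 72 h; red points have an adjusted p below 0.05 (limma), grey ones do not, and bars mark the median of the 43. The median moves below 0 at 24 h (-0.26) and above 0 at 72 h (0.16), and Cdc25b stands far above the other genes at 24 and 72 h.

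CDC25B is a phosphatase that activates CDK1 at the onset of mitosis. Cdc25b read 5.82, 5.53 and 5.91 in KO and 5.78, 5.86 and 5.80 in WT at 0 h, 5.82, 5.10 and 5.11 in KO and 3.93, 4.81 and 4.68 in WT at 4 h, 7.10, 6.89 and 6.61 in KO and 5.60, 4.90 and 5.02 in WT at 24 h, and 8.06, 7.89 and 7.81 in KO and 6.37, 6.52 and 6.23 in WT at 72 h. The genotypes overlapped at 0 h and at no later time. In WT cells Cdc25b fell at 4 h and at 24 h stayed under its 0 h level (-0.64, SE 0.20), while in KO cells its change at 4 h did not pass (-0.41, adjusted p = 0.141) and at 24 h it was above 0 h (1.11, SE 0.20). The difference between the genotypes did not pass for the step from 0 to 4 h (0.92, adjusted p = 0.17) or for that from 4 to 24 h (0.82, adjusted p = 0.136). For the whole change from 0 to 24 h it was not tested.

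The KO over WT change of Cdc25b was 0.87 at 4 h (SE 0.20, adjusted p = 0.0118), 1.69 at 24 h (adjusted p = 2.85e-06) and 1.54 at 72 h (adjusted p = 6.66e-06). At 24 and 72 h it passed in every alternative setting, with values of 1.55 to 1.90 and 1.47 to 1.65. At 4 h it did not pass without WT array 1 (0.59, adjusted p = 0.121), without KO array 1 (0.63, adjusted p = 0.117), with the groups of 4 h fitted alone (adjusted p = 0.16) or with KO array 2 standing alone for KO (adjusted p = 0.378).

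Before stimulation, 2 of the 43 genes were higher in KO and 2 lower (over all genes 1.76% were higher and 0.577% lower, and 75.3% of all called genes were higher, or 61% after a further quantile normalization). The higher ones were Mki67 and Smc4, the lower ones the motor genes Kif2c and Kif22. KIF2C takes microtubules apart at kinetochores, and its gene read 3.67, 3.50 and 3.24 in KO against 4.35, 4.03 and 4.42 in WT, a change of -0.80 (SE 0.15, adjusted p = 0.00288). KIF22 pushes chromosome arms towards the spindle equator, and Kif22 read 4.34, 4.07 and 3.67 in KO against 4.75, 4.68 and 4.59 in WT (-0.65, SE 0.15, adjusted p = 0.0158). Both pairs of groups lay apart, though at low levels. The KO arrays of Kif2c lay within or below the range of the array medians, 3.59 to 3.765.

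Mki67 at 0 h read 5.25, 5.11 and 5.27 in KO against 4.81, 4.49 and 4.72 in WT, with every KO array above every WT array (0.54, SE 0.12, adjusted p = 0.0116). Smc4 read 10.42, 10.57 and 10.61 in KO against 10.25, 10.24 and 10.29 in WT (0.27, adjusted p = 0.0253). Arrays did not overlap for 8 genes that were higher in KO and 3 that were lower, beside 9.83% and 7.09% of all genes. Of the higher 2, 1 was left without any single KO array or without WT array 1, and 0 without WT array 2. Of the lower 2, 1 was left without KO array 3, WT array 1 or WT array 2, and 0 without the arrays numbered 3 or with KO array 2 standing alone for KO. At this time the 2 other KO arrays had the higher B cell and myeloid marker means.

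At 4 h 4 genes were higher in KO and 0 lower (over all genes 3.3% and 0.834%; 79.8% of all called genes were higher, or 66.2% after a further quantile normalization). Besides Cdc25b these were Smc4, Cenpa and Mki67. Smc4 read 10.24, 10.02 and 10.04 in KO and 9.62, 9.61 and 9.41 in WT, with the lowest KO array above the highest WT array. Its change of 0.55 (SE 0.07, adjusted p = 3.93e-06) passed in every alternative, with values of 0.47 to 0.60. Cenpa read 6.36, 6.44 and 6.29 in KO against 5.88, 6.07 and 5.67 in WT (0.49, SE 0.11, adjusted p = 0.00662).

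Mki67 at 4 h read 4.54, 4.31 and 4.45 in KO against 3.85, 3.82 and 4.26 in WT (0.46, SE 0.12, adjusted p = 0.0266), and WT array 3 came close to the KO arrays. Arrays of 5 genes lay apart with KO higher and of 0 with KO lower (9.31% and 6.9% of all genes). The 4 calls were 2 without WT array 1 or without KO array 1 at that time, and 1, Smc4, with KO array 2 standing alone for KO. KO arrays 1 and 3 had the highest myeloid and B cell marker means at this time. From 0 to 4 h Smc4 changed by -0.43 in KO and by -0.71 in WT (SE 0.07 each). No gene of the 43 passed the test of that step's difference between genotypes. Over all genes 0.446% passed with a higher and 0.28% with a lower change in KO.

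At 24 h most of the genes read lower in KO, though few passed. Of the 43, 2 were higher and 8 lower in KO (3.9% and 7.38% of all genes), and arrays lay apart with KO lower for 15 genes and with KO higher for 2 (18.8% and 8.37% of all genes). The lower genes came from several roles: Cdk1 and Ccna2, the checkpoint genes Ttk, Bub1b and Bub3, the passenger gene Incenp, the kinetochore gene Cenpf and the cytokinesis gene Anln. The higher ones were Cdc25b and Smc4 (0.20, adjusted p = 0.0495). Smc4 no longer passed without KO array 1 (adjusted p = 0.242), without KO array 3, without any of the WT arrays at 24 h, or in most fits that left out an array of another time.

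Cdk1 read 6.18, 6.85 and 6.70 in KO against 7.18, 7.16 and 7.43 in WT at 24 h, a change of -0.68 (SE 0.18, adjusted p = 0.0149). Ccna2 read 7.87, 8.15 and 7.98 in KO against 8.42, 8.39 and 8.77 in WT (-0.53, SE 0.14, adjusted p = 0.0124). For both, every KO array was below every WT array. TTK, the kinase that starts checkpoint signalling, had its gene at 6.67, 6.55 and 6.90 in KO and 7.13, 6.96 and 7.51 in WT (-0.49, adjusted p = 0.0345).

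Bub1b, whose product BUBR1 is part of the complex that inhibits the anaphase-promoting complex, read 6.44, 6.81 and 6.88 in KO and 7.03, 7.0 and 7.35 in WT (-0.41, adjusted p = 0.0394). The other called changes were -0.42 for Cenpf and for Anln, -0.37 for Incenp and -0.26 for Bub3. Anln, an actin-binding protein of the cleavage furrow, was the only one of the 8 with overlapping arrays, since KO array 3 (5.74) lay above WT array 2 (5.72). Among genes that did not pass, Kif23 was at -0.62 (adjusted p = 0.0929), Birc5 at -0.45 (0.0538) and Plk1 at -0.14 (0.566).

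The 24 h count rested on single arrays. The 8 lower genes were 0 without KO array 1, 3 without KO array 2, 3 without WT array 1, 15 without WT array 2 and 1 without WT array 3. They were 1 without the arrays numbered 3 and 0 with KO array 2 standing alone for KO, beside B cell marker means that were higher on each KO array than on any WT array at 24 h. A further quantile normalization left 1 (Cdk1), with 39 of 43 still below 0 and a median of -0.20, and moved the share of higher genes among all called ones to 53.3%, against 34.6%. With arrays paired by number in a replicate block, 7 were lower and 1 higher: Cenpf (adjusted p = 0.0509), Anln (0.0518) and Smc4 (0.0544) no longer passed and 1 other gene did.

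Other lists of the cell cycle were set beside these values at 24 h. Of the 71 further mitosis genes 0 were higher and 19 lower in KO (median -0.30), led by Troap (-0.89, SE 0.14), Cenpw (-0.88, SE 0.13) and Psrc1 (-0.80, SE 0.11), and of the 40 replication genes 0 were higher and 7 lower (median -0.20), led by Orc1 (-0.65), Ccne1 (-0.52) and Mcm10 (-0.51). TROAP and PSRC1 bind spindle microtubules, CENPW is a centromere protein, ORC1 and MCM10 load and start replication origins, and cyclin E1 drives entry into S phase. The 19 were 10 without KO array 1, 11 without WT array 3 or without the arrays numbered 3, and 7 with KO array 2 standing alone for KO. The 7 replication genes were 4 without KO array 1, without KO array 2 or after a further quantile normalization, 12 with the groups of 24 h fitted alone, and 0 with KO array 2 standing alone for KO. The means of the 40 replication genes were 8.40, 8.46 and 8.54 in KO and 8.68, 8.67 and 8.76 in WT, without overlap.

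At 72 h only Cdc25b was called in KO against WT, and 0 genes were lower (2.56% and 3.77% of all genes were higher and lower). Although 41 of 43 genes lay above 0, the changes other than that of Cdc25b were at most 0.34 (Kif2c, SE 0.15, adjusted p = 0.26). Arrays lay apart with KO higher for 20 genes and with KO lower for 1 (12.5% and 12% of all genes). Kif11 read 9.91, 9.79 and 9.78 in KO and 9.61, 9.59 and 9.44 in WT (0.28, adjusted p = 0.122), and Plk1 9.53, 9.54 and 9.59 in KO and 9.31, 9.31 and 9.30 in WT (0.25, adjusted p = 0.316). In both the KO arrays were the higher ones. With the 2 groups of 72 h fitted alone 10 genes were higher, and after a further quantile normalization 2. Of the replication genes 9 were higher and 0 lower, led by Dut (0.48), and of the further mitosis genes 3 were higher and 1 lower (Psrc1, -0.90). The 9 were 5 without WT array 1 or 2, 2 without WT array 3, 4 without KO array 3, 1 without KO array 1 or the arrays numbered 3, and 0 with KO array 2 standing alone for KO. The 3 were 1 without WT array 1 or 3, and 0 without WT array 2, KO array 1 or the arrays numbered 3, or with KO array 2 standing alone for KO. With the 72 h groups alone in the fit, the 9 were 17 and the 3 were 10.

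**Figure D5:**
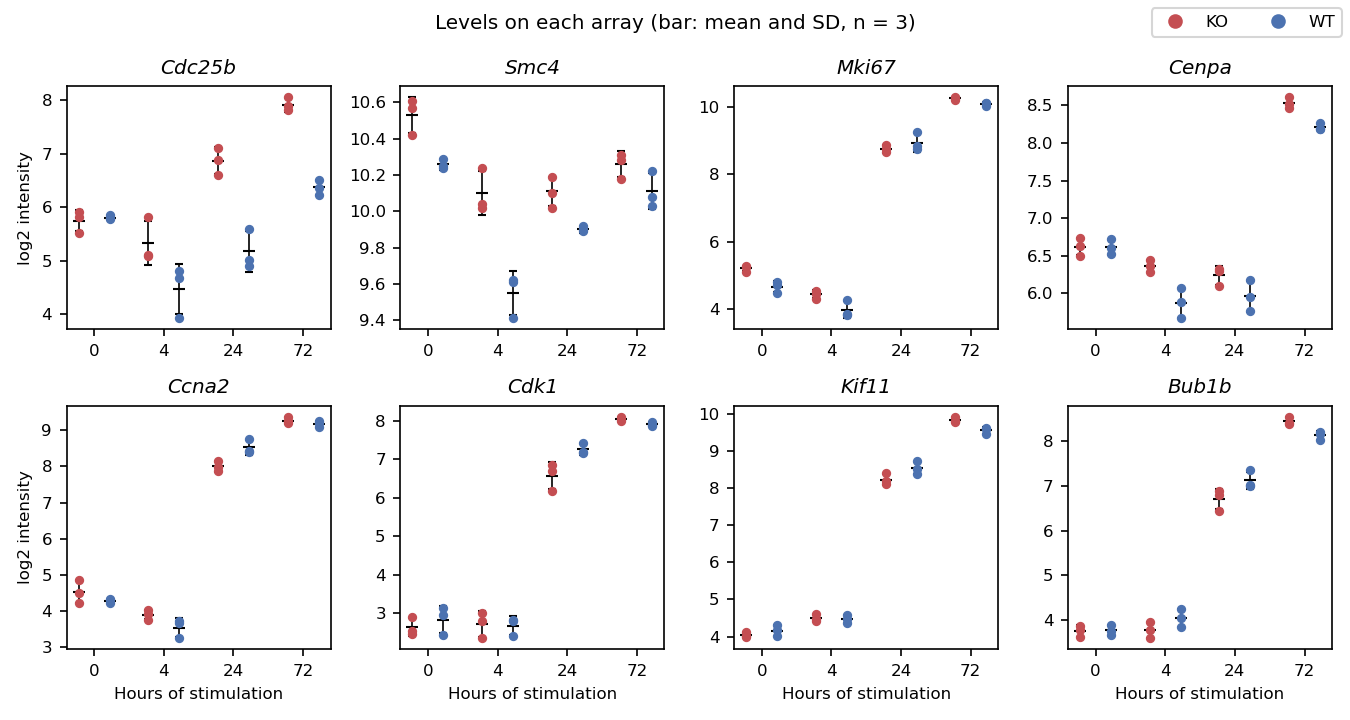
Log2 intensity of 8 genes on each array by hours of stimulation, KO (red) left of WT (blue) at each time, with mean and SD (n = 3); y axes differ between genes and do not start at 0. Cdc25b separates the genotypes from 4 h on and Smc4 at 0, 4 and 24 h, while Ccna2 and Cdk1 lie lower in KO at 24 h and Kif11 and Bub1b higher in KO at 72 h.

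The difference between the genotypes in each step was tested as an interaction. From 24 to 72 h the KO step exceeded the WT step for 40 of 43 genes, with a median difference of 0.44 log2 units (0.06 over all genes), and 6 genes passed, all with the larger step in KO (4.9% of all genes had the larger and 3.56% the smaller step in KO). Kif11 had steps of 1.61 in KO and 1.02 in WT, a difference of 0.59 (SE 0.14, adjusted p = 0.00974), and Bub1b steps of 1.74 in KO and 1.01 in WT (0.72, adjusted p = 0.013). Incenp (0.61), Bub3 (0.34), Birc5 (0.72) and Cdk1 (0.82, adjusted p = 0.0495) also passed. Cdc25b had late steps of 1.05 in KO and 1.2 in WT (-0.15, SE 0.29, adjusted p = 0.864).

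That count of 6 was 3 without WT array 1 at 24 h, WT array 3 at 72 h or KO array 1 at 72 h, 2 without KO array 1 at 24 h, 11 without WT array 2 at 24 h and 0 without the arrays numbered 3. Cdk1 had an adjusted p of 0.0574 with the replicate block. The split of all called genes, 57.9% with the larger step in KO, was 47.7% after a further quantile normalization, with which 5 of the 43 passed. The replication genes (17 of 40, median 0.40) and the further mitosis genes (23 of 71, median 0.39) included genes that passed with a larger KO step and 0 with a smaller one. Each of these counts was 4 without the arrays numbered 3. Leaving out single arrays of 24 or 72 h gave as few as 9 in either list, without KO array 1 at 72 h for the replication genes and without KO array 1 at 24 h for the further mitosis genes.

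From 4 to 24 h the KO step was smaller than the WT step for 36 of 43 genes, with a median difference of -0.19 (-0.06 over all genes). The 3 that passed were Ccna2 with steps of 4.10 in KO and 4.97 in WT (-0.88, SE 0.20, adjusted p = 0.0141), Mki67 with 4.32 in KO and 4.96 in WT (-0.65, adjusted p = 0.0431) and Smc4 (-0.35, adjusted p = 0.0483), beside 1.58% of all genes with the smaller and 0.645% with the larger step in KO. For Mki67 and Smc4 the 4 h level was already higher in KO. After a further quantile normalization the median of the 43 was -0.05, 27 lay below 0, 1 gene passed, and the share of positive differences among all called genes was 60.9%, against 28.9%. The count of 3 was 1 without any single array of WT or KO at 72 h other than WT array 2, and 1 without WT array 1 or KO array 1 at 4 h, either of WT arrays 1 and 3 at 24 h, and either of KO arrays 1 and 2 at 24 h. It was 0 without the arrays numbered 3. Smc4 had an adjusted p of 0.051 with the replicate block.

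At any single time most of 18 regulator genes of MuvB, the E2F and retinoblastoma families and CDK inhibitors did not pass, but those that passed differed between times. In KO 0 were higher and 1 lower at 0 h (1.76% and 0.577% of all genes), 3 and 0 at 4 h (3.3% and 0.834%), 3 and 3 at 24 h (3.9% and 7.38%), and 1 and 2 at 72 h (2.56% and 3.77%). Cdkn1b, which encodes the CDK inhibitor p27, read 7.31, 6.89 and 6.82 in KO and 5.85, 5.93 and 6.03 in WT at 24 h. All KO arrays were higher, and the change was 1.07 (SE 0.13, adjusted p = 2.09e-06), after 0.75 at 4 h (SE 0.13, adjusted p = 0.000463). At 72 h KO arrays at 7.36, 7.26 and 7.22 and WT arrays at 7.19, 7.05 and 7.20 nearly met.

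The pocket protein gene Rbl2, a repressive partner of MuvB in quiescent cells, read 8.10, 7.82 and 7.91 in KO and 7.5, 7.33 and 7.38 in WT at 24 h, also with all KO arrays higher (0.54, SE 0.09, adjusted p = 0.000126). It was higher by 0.59 at 4 h, as was its relative Rbl1 by 0.44. Rb1 was higher by 0.26 at 24 h, whereas E2f3 (-0.59), E2f8 (-0.54) and E2f4 (-0.31) were lower. E2f2 was lower at 0 h (-0.62, SE 0.11, adjusted p = 0.00173), a call that was lost without the arrays numbered 3 (adjusted p = 0.11) and with the 0 h groups fitted alone (adjusted p = 0.0535). At 72 h Cdkn1a (-0.64) and Lin54 (-0.33) were lower and Rbbp4 (0.20) higher. Mybl2, which encodes B-MYB, did not pass at any time and read 7.49, 7.61 and 8.13 in KO and 7.73, 7.62 and 8.31 in WT at 24 h. The mean of the B cell markers was also higher in KO at these times, and its part in these values was not tested. The fit with KO array 2 standing alone for KO cannot decide that part, because it leaves a single KO array. E2f3, E2f4 and E2f8 did not pass without KO array 1 at 24 h (adjusted p = 0.0627, 0.0558 and 0.0668). Nor did E2f3 pass without WT array 2 or KO array 2, E2f4 without WT array 1, or E2f8 without WT array 3. Without the arrays numbered 3, Rb1, E2f3 and E2f8 did not pass. At 72 h Cdkn1a did not pass without KO array 1 (adjusted p = 0.0547), Lin54 without any single array of that time, and Rbbp4 without any but KO array 2. The calls of Cdkn1b at 4 and 24 h and of Rbl2 at 4 h passed in every alternative. Those of Rbl2 at 24 h and of Rbl1 at 4 h did not pass in all of them.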

How the data were processed

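Gene expression was measured on 24 Affymetrix arrays. The authors deposited log2 values that had been background corrected, normalized and summarised per probe set. They used RMA, with oligo and R 3.1.0, per the submitters' processing notes. RMA compresses low intensities and its scale has no zero, so the tests compared levels only within a probe set. Means over a list of genes, and levels set beside the array medians, are descriptions. Of 41345 probe sets, 23521 carried 1 gene symbol, 1814 several and 16010 none in the platform annotation used here, and 23328 were matched to RefSeq. Where a gene had several probe sets (1082 genes), that with the highest mean was used, which left 22180 genes.

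Group means of the 8 groups were fitted to all arrays with limma 3.58.1 in R 4.3.3 (lmFit, and eBayes with a trend), with 16 residual and a median of 24.8 total degrees of freedom. Contrasts between groups and between steps were adjusted by Benjamini-Hochberg over all genes, with a threshold of 0.05. The fit was checked on simulated data. The number of arrays limits the precision. No array pair exceeded a correlation of 0.992, and none was treated as a repeat.

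The mitosis and spindle genes and all other lists were chosen with earlier results of these data known. All 43 measured genes could be named, as could Trim28 and all regulators, and of the lists of further mitosis, replication and anaphase-promoting complex genes up to 3 of the largest called KO and WT changes at each time. Xist, Eif2s3y, Cd3e and Cd4 were named as checks.

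Same-numbered KO and WT arrays deviated together. Their correlations were 0.108 to 0.24 at 0 h and 0.096 to 0.172 at 4 h. They were 0.133 to 0.247 at 24 h and 0.126 to 0.306 at 72 h. Arrays with different numbers reached 0.077 at most, so that the numbers were taken to pair arrays at every time. The main fit left this pairing out, and only the replicate block, over all 24 arrays, took it in. The labels do not say what a number stands for. As alternatives, probe sets of a gene were averaged. Other fits used no low genes, a second quantile normalization, the replicate block, robust eBayes, only the groups compared, each array left out and arrays 1 and 2 alone. KO array 2 standing alone for KO was added after the data had been seen.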

Additional observations from a re-analysis of the deposited data

Results flagged for a closer look

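These genes differed between KO and WT in the size of a step, tested as an interaction in limma with Benjamini-Hochberg adjustment over all genes. From 24 to 72 h the step of Cdk1 was larger in KO by 0.82, Bub1b by 0.72, Birc5 by 0.72, Incenp by 0.61, Kif11 by 0.59 and Bub3 by 0.34 log2 units. From 4 to 24 h the KO minus WT difference was -0.88 for Ccna2, -0.65 for Mki67 and -0.35 for Smc4.

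Among regulators, the step from 0 to 4 h differed for E2f2 (0.80, adjusted p = 0.0118), Rbl2 (0.54, adjusted p = 0.0302) and Rbl1 (0.46, adjusted p = 0.0375), and that from 4 to 24 h for Rbl1 (-0.45, adjusted p = 0.0226). From 24 to 72 h the differences were -0.94 for Cdkn1b (adjusted p = 0.00111), -0.60 for Rbl2 (adjusted p = 0.00194), 0.39 for E2f4 (adjusted p = 0.029) and 0.33 for Rbbp4 (adjusted p = 0.0147). The differences of Cdkn1b and Rbl2 from 24 to 72 h passed in every alternative. The 3 regulator calls from 0 to 4 h were together lost in 27 of 93 alternative fits and none held in all, for example without the arrays numbered 3 (adjusted p = 0.173 for E2f2, 0.176 for Rbl2 and 0.0937 for Rbl1). Rbl1 from 4 to 24 h, Rbbp4 and E2f4 also failed without those arrays (adjusted p = 0.0895, 0.0944 and 0.051) and after a further quantile normalization (adjusted p = 0.247, 0.133 and 0.063). Rbl1 from 4 to 24 h failed without WT array 1 or KO array 1 at 4 h, or WT array 2 or KO array 2 at 24 h, and Rbbp4 without KO array 1 at 72 h. E2f4 failed without WT array 1, KO array 1 or KO array 2 at 24 h, or WT array 1, WT array 3 or KO array 1 at 72 h.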

How the results depend on the processing

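The counts of genes that rose from 4 to 24 h, from 24 to 72 h and from 0 to 72 h stayed within 1.5 times in every alternative run, and no result changed sign while called. Cdc25b at 24 and 72 h and Smc4 at 4 h passed throughout. With only the groups compared in the fit, KO and WT differed in 1 gene higher and 1 lower at 0 h, 1 higher at 4 h, 1 higher and 6 lower at 24 h, and 10 higher at 72 h. In the same fits the early steps had 2 that rose in KO and 1 in WT, 1 gene was lower in WT at 72 h than at 0 h, and the interactions had 0 (24 h against 4 h) and 19 (72 h against 24 h). A second quantile normalization gave 1 lower at 24 h, 2 higher at 72 h, 4 that rose in WT by 4 h, 1 lower in WT at 72 h than at 0 h and 1 interaction from 4 to 24 h. The replicate block and robust eBayes each gave 1 higher at 24 h, and the block ended the calls of Cenpf, Anln and Smc4 at 24 h, of Smc4 and Cdk1 in the interactions and of Ncaph in KO from 0 to 4 h (adjusted p = 0.0506), and no other call made without it among the named genes. KO array 2 standing alone for KO gave 1 higher and 0 lower at 0 h, 1 higher and 1 lower at 4 h, and 1 higher and 0 lower at 24 h.

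With an array left out, or the arrays numbered 3, the ranges were 0 to 3 higher and 0 to 2 lower at 0 h, 2 to 5 higher and 0 to 1 lower at 4 h, and 1 to 2 higher and 0 to 15 lower at 24 h. They were 2 to 4 that rose by 4 h in KO and 1 to 3 in WT, 1 to 3 lower in KO at 24 h than at 0 h, and 0 to 1 lower in WT at 72 h than at 0 h. For the interactions they were 0 to 1 larger in KO from 0 to 4 h, 0 to 1 larger and 0 to 3 smaller from 4 to 24 h, and 0 to 11 larger from 24 to 72 h. The cause was not tested, beyond the fewer arrays in these fits. Signal over background was not used here, since the values came with no detection calls.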
